A study of Mus musculus with 24 samples.

Results

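Inka1, Lrrc75a, Uck2 and Swap70 are 4 mouse genes that were picked because their counts were lower in alveolar macrophages of old than of young mice. They are 4 of the 43430 gene IDs in the deposited table of counts and 4 of the 13467 genes with enough counts to be tested, so all of them passed the filter on low counts. Their lower level in old cells is what chose them, and it is given below as a description with no test. No limit on size or p came with the choice, so no genes just inside or just outside it can be given. What the choice did not use is how each gene differed between naive and asbestos-exposed mice and between the sorted populations, and those differences were tested.

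The 24 RNA-seq libraries came from lung macrophages of C57BL/6J mice sorted as Siglec F-high or Siglec F-low alveolar macrophages, 4 libraries in each of 6 groups. Young mice were 8 to 12 weeks old and old mice over 18 months per the labels, where the series text spoke of 2 and 18 months, and cells of asbestos-treated mice were sorted at 28 days. Siglec F-high cells came from young and old mice, naive or treated with asbestos, which makes 4 groups. Siglec F-low cells came from young and old asbestos-treated mice, which makes the other 2, so they were compared between ages only after asbestos. No group carried a transgene or a drug per the sample labels. The labels did not say whether libraries of a group came from separate or pooled mice, so p-values measure the spread between these libraries, which may be technical.

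As background, the 4 genes belong to different pathways. INKA1 is a small inhibitor of the kinase PAK4, which phosphorylates regulators of the actin cytoskeleton. UCK2 is a uridine-cytidine kinase, the enzyme that starts pyrimidine salvage by phosphorylating uridine and cytidine taken up by the cell, and is known as the more active relative of UCK1. SWAP70 binds phosphoinositides and actin filaments and acts on the GTPase Rac. It is best known in B cells, where it was found, and its relative DEF6 binds the transcription factor IRF4. LRRC75A is a protein with leucine-rich repeats, and no role is assigned to it here. Alveolar macrophages are the resident phagocytes of the airspaces, and after lung injury cells derived from blood monocytes join them.

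The genes lie on 4 chromosomes (GRCm38, GENCODE M21). Inka1 is on the minus strand of chr9:107984223-107985879, Lrrc75a on the minus strand of chr11:62604884-62648523, Uck2 on the minus strand of chr1:167222883-167285320 and Swap70 on the plus strand of chr7:110221711-110283506. Their merged exons span 1156, 2089, 5464 and 8090 bases in that order.

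Inka1 and Swap70 are shown with the 250 bases before their RefSeq start (GRCm38.p6), as the gene with the widest age difference in Siglec F-high cells and the gene whose ages did not overlap. The Inka1 sequence is chr9:107985917-107986166 on the minus strand and the Swap70 sequence chr7:110221453-110221702 on the plus strand, both written 5′ to 3′ along the gene. Capitals mark every match on either strand to a GC box (GGGCGG) or a CCAAT box (CCAAT).
Inka1: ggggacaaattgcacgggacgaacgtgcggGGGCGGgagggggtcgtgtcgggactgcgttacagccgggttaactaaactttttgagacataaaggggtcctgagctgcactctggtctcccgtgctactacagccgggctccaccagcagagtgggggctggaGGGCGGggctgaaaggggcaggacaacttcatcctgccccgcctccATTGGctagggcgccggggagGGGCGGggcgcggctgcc
Swap70: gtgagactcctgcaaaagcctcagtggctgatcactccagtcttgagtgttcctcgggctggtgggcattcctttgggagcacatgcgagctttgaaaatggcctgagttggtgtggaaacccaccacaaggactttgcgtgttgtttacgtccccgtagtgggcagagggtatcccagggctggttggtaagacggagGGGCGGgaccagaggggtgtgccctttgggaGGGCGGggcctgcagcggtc
The Inka1 stretch held 3 GC boxes, with their 3′ ends 215, 80 and 13 bases before the start, and 1 CCAAT box on the opposite strand. Swap70 held 2 GC boxes, 46 and 15 bases before the start, and no CCAAT box. A GC box was found in 32.4% and a CCAAT box in 34.1% of the same 250 bases of 27018 genes. Neither stretch matched a TATA box (TATAAA), an E-box (CACGTG), an AP-1 motif (TGANTCA), a CRE (TGACGTCA) or an ETS motif of the PU.1 type (GAGGAAGT), which were found in 13, 5.89, 6.87, 1.54 and 2.47% of genes. GC content was 66.0% for Inka1 and 59.6% for Swap70, against a median of 52.0%. These matches describe letters and are neither sites nor causes. RefSeq's table also held Uck2, whose window lies mostly within the first exon given by GENCODE, and it was not printed.

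The libraries were checked before the genes were compared. Of the 24 libraries, 22 held 13423080 to 18124526 counts with 17069 to 18820 genes detected, and the Pearson r of each with its group was 0.971 to 0.993, taken over genes, which are no replicates. The other 2 stood apart. In old asbestos Siglec F-high replicate 3 there were 3894699 counts, 35.6% of them on Gm42418 (0.136 to 0.357% in the 22), with an r of 0.900. In young asbestos Siglec F-high replicate 3 there were 11889517 counts, only 12528 genes were detected and r was 0.865. Results that rest on these 2 libraries were computed with 24 and with 22 libraries, and many are given with both. The 14 alveolar macrophage markers, among them Siglecf, Marco, Pparg and Chil3, summed to 19660 to 71840 CPM (the usual count scaled to library depth, here with TMM factors) and none was at 0 in a whole group, which is what the label calls for. Chil3 alone was at 10570 to 60670 CPM. By mean over the 22 libraries the sum was highest in Siglec F-low cells, at 47920 CPM in young and 64470 CPM in old ones. Chil3 made up most of it, at 30930 to 41760 and 47030 to 60670 CPM. Gene by gene, 4 of 14 were lower and 1 higher in Siglec F-low than in asbestos Siglec F-high cells of young mice. In old mice 3 were lower and 1 higher (adjusted p under 0.05, edgeR, 24 libraries). With 22 libraries these were 4 and 4 in young and 5 and 2 in old mice. Siglecf itself, the gene of the sort, was at 312.5 to 475.9 CPM in young and 371.6 to 472.1 CPM in old asbestos Siglec F-high libraries. In Siglec F-low libraries Siglecf was at 236.0 to 294.2 CPM in young and 147.9 to 220.9 CPM in old mice. The ages of the Siglec F-low sort therefore did not overlap in Siglecf.

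All 4 genes were lower in old than in young cells in each of the 3 populations, as they were chosen to be, by log2 fold changes that ran from -0.24 to -2.81. Inka1 was lower by the most in Siglec F-high cells, at a log2 fold change of -2.81 ± 0.39 (SE) in naive mice and -2.26 ± 0.42 after asbestos, and by -0.93 ± 0.38 in Siglec F-low cells. Lrrc75a was lower by -1.41 ± 0.20, -0.87 ± 0.22 and -1.40 ± 0.21 in the same order. Uck2 was lower by -0.78 ± 0.14, -0.59 ± 0.14 and -0.24 ± 0.14. Swap70 was lower by -0.55 ± 0.11, -0.74 ± 0.11 and -0.36 ± 0.11. With 22 libraries the values in asbestos Siglec F-high cells were -2.27, -1.09, -0.58 and -0.66 for Inka1, Lrrc75a, Uck2 and Swap70. Of all genes tested, 2.03% were called between the ages in naive, 4.76% in asbestos Siglec F-high and 1.29% in Siglec F-low cells, and 8.03, 7.32 and 7.21% with 22 libraries. Called means an adjusted p under 0.05 in edgeR's quasi-likelihood test, in either direction. In sorted bulk cells, fewer cells of a type that holds an RNA and less of that RNA per cell cannot be told apart.

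**Figure D1:**
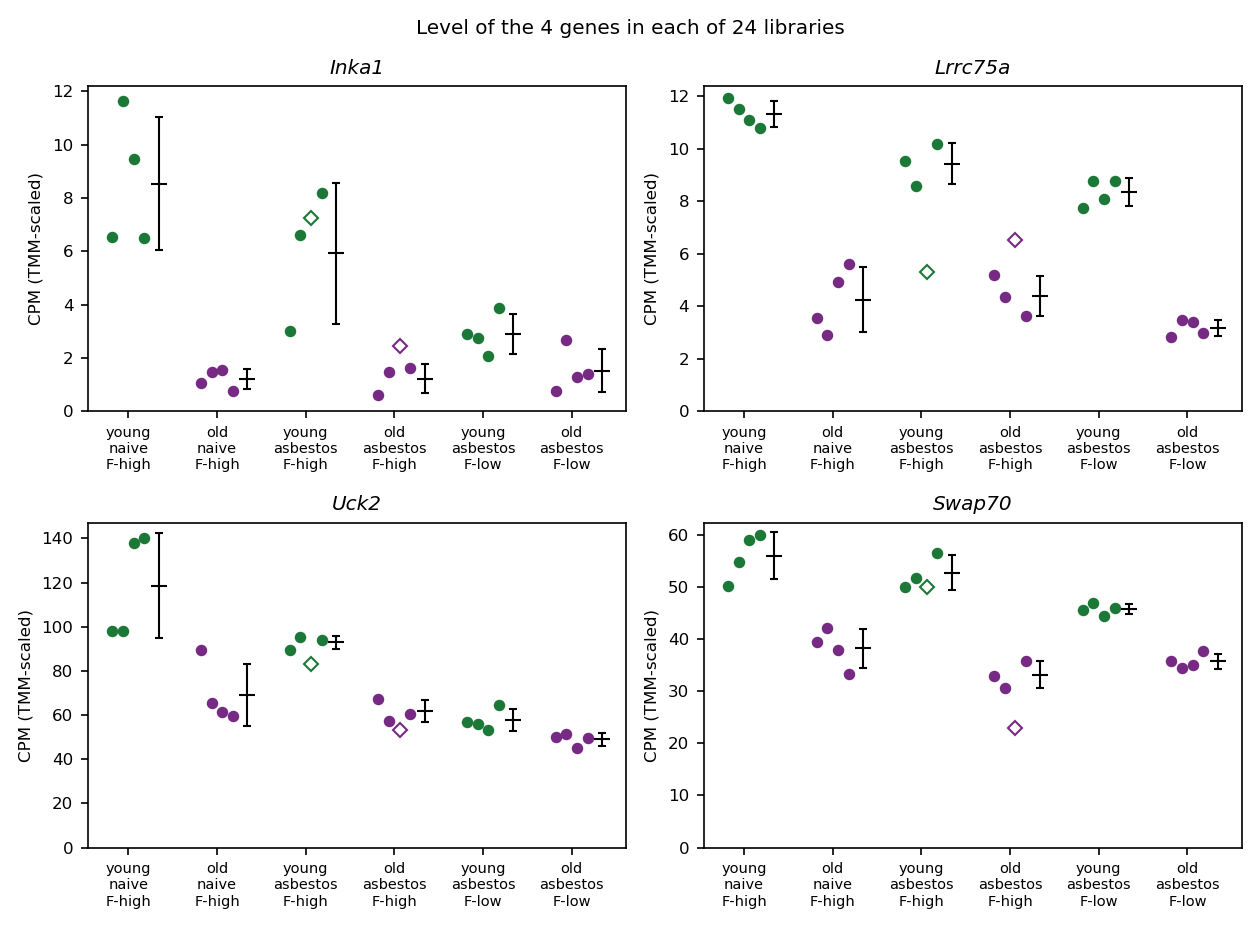
Level of Inka1, Lrrc75a, Uck2 and Swap70 (y axes, TMM-scaled CPM) in each of 24 libraries by group (x axes; young green, old purple). Open diamonds are the 2 libraries that stood apart, and bars are the mean ± SD without them; every old library lies below every young one for Swap70.

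Inka1 was the gene with the fewest counts, from 3 to 195 a library. In young naive Siglec F-high cells its level was 6.54, 11.7, 9.47 and 6.50 CPM in replicates 1 to 4, and in old naive cells 1.05, 1.46, 1.55 and 0.77 CPM. These groups did not overlap. After asbestos, young Siglec F-high cells held 3.001, 6.61, 7.25 and 8.17 CPM and old ones 0.60, 1.47, 2.45 and 1.60 CPM. The 2.45 CPM is a count of 3 in the shallow library, with an exact Poisson 95% interval of 0.51 to 7.16 CPM that covers counting error only, so that library cannot place Inka1 on either side. Young Siglec F-low cells held 2.90, 2.74, 2.07 and 3.88 CPM and old ones 0.75, 2.67, 1.27 and 1.40 CPM, and these groups overlapped in 1 old library, replicate 2. Over all populations 10 of 12 old libraries were below every young one. Ordered by mean, the 6 groups ran from young naive through young asbestos Siglec F-high and young Siglec F-low to the 3 old groups, and each group overlapped the next in that order. The old groups, at means of 1.21, 1.22 and 1.52 CPM with 22 libraries, could not be separated from each other.

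The age difference of Inka1 was nearer to 0 in Siglec F-low than in asbestos Siglec F-high cells by 1.33 ± 0.57 on the log2 scale, a difference of age differences that was not tested because age chose the gene. Young Siglec F-low cells had a mean of 2.90 ± 0.75 CPM (SD, n = 4) against 6.26 ± 2.26 CPM (n = 4) in young asbestos Siglec F-high cells, while the old means were 1.52 ± 0.82 and 1.53 ± 0.76 CPM. Between these sorts in young mice Inka1 differed by -1.10 ± 0.37, which did not pass at an adjusted p of 0.0851 (edgeR) with 24 libraries and of 0.0588 with 22. DESeq2 gave an adjusted p of 0.0442 and edgeR 0.0255 without young asbestos Siglec F-high replicate 1, which at 3.001 CPM was the lowest of its group; over all 30 alternatives the adjusted p ran from 0.0255 to 0.291. In old mice the same contrast was 0.22 ± 0.43 (adjusted p 0.914), an interval of -0.64 to 1.09 at 2 SE.

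Lrrc75a was lower in old cells in all 3 populations. Young naive Siglec F-high cells held 11.9, 11.5, 11.1 and 10.8 CPM and old ones 3.56, 2.92, 4.92 and 5.62 CPM. After asbestos, young Siglec F-high libraries held 9.54, 8.60, 5.32 and 10.2 CPM and old ones 5.18, 4.34, 6.53 and 3.64 CPM. The overlap came from the libraries that stood apart, replicate 3 of each group, the old one with 8 counts and an interval of 2.82 to 12.9 CPM. In Siglec F-low cells the young libraries held 7.76, 8.78, 8.09 and 8.79 CPM and the old ones 2.84, 3.46, 3.41 and 2.98 CPM. With 22 libraries all 11 old values were below all 11 young ones, the lowest young at 7.76 and the highest old at 5.62 CPM, and with 24 it was 10 of 12. Young naive cells stood above young asbestos Siglec F-high cells with no overlap, and the latter overlapped Siglec F-low cells. The 3 old groups overlapped each neighbour in their order.

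Uck2 was the most abundant of the 4 per kilobase of exon, at 21.7 CPM in young naive cells against 7.39 for Inka1, 6.92 for Swap70 and 5.42 for Lrrc75a, and the one whose ages overlapped most. Young naive Siglec F-high cells held 97.9, 98.0, 138 and 140 CPM, which fall into a lower and an upper pair, and old naive cells 89.6, 65.5, 61.3 and 59.6 CPM. Young asbestos Siglec F-high cells held 89.3, 95.2, 82.96 and 94.2 CPM and old ones 67.2, 57.5, 53.1 and 60.7 CPM. Within each of these sorts the ages did not overlap. Young Siglec F-low cells held 57.0, 56.2, 53.5 and 64.7 CPM and old ones 50.3, 51.6, 44.9 and 49.7 CPM, which do not overlap either but are close, with 53.5 as the lowest young and 51.6 as the highest old value. Over all populations only 5 of 12 old libraries were below every young one, because young Siglec F-low cells were as low as old Siglec F-high cells.

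Uck2 was lower in Siglec F-low than in Siglec F-high cells of young asbestos-treated mice, and this was the only one of the 16 tested values of the 4 genes to pass with edgeR. Uck2 fell from 90.4 ± 5.59 CPM in young asbestos Siglec F-high cells to 57.9 ± 4.83 CPM in Siglec F-low cells (SD, n = 4 each), a log2 fold change of -0.64 ± 0.14 at an adjusted p of 0.00571, and no library of the groups overlapped. With 22 libraries it was -0.68 at an adjusted p of 0.00104, and all 30 alternatives stayed under 0.05. Between these young sorts 4.99% of all genes were called, and 12.0% with 22 libraries, and 1 of 4 genes is too small a count to set against these shares. In old mice the contrast was -0.29 ± 0.14 (adjusted p 0.324), with an interval of -0.57 to -0.01 at 2 SE, where 4.3% of genes were called and 11.6% with 22 libraries. The young and old values share no library, but the young and old groups in them are those of the age differences, and whether the sort acted differently at the 2 ages was not tested for a gene chosen by age.

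Swap70 was the gene whose young and old libraries did not overlap at all over the 3 populations. Young naive Siglec F-high cells held 50.2, 54.7, 59.0 and 60.1 CPM and old ones 39.5, 42.2, 38.0 and 33.2 CPM. Young asbestos Siglec F-high cells held 50.0, 51.7, 50.0 and 56.6 CPM and old ones 33.0, 30.6, 22.9 and 35.8 CPM, of which the 22.9 CPM is a count of 28 in the shallow library. Young Siglec F-low cells held 45.5, 46.9, 44.5 and 46.0 CPM and old ones 35.8, 34.5, 34.9 and 37.6 CPM. All 12 old libraries were below all 12 young ones, with 44.5 CPM as the lowest young and 42.2 CPM as the highest old value. Young Siglec F-low libraries were all below the young Siglec F-high ones, but that contrast was -0.19 ± 0.11 and did not pass (adjusted p 0.318, and 0.107 with 22 libraries). The 3 old groups overlapped each neighbour in their order.

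Asbestos left the 4 genes without a called difference in Siglec F-high cells of either age. In young mice the log2 fold changes of asbestos against naive were -0.45 ± 0.35 for Inka1, -0.42 ± 0.20 for Lrrc75a, -0.39 ± 0.14 for Uck2 and -0.11 ± 0.11 for Swap70. edgeR and DESeq2 each called 0 of 4, and 2 of 4 (Lrrc75a and Uck2) had an unadjusted edgeR p under 0.05, as did 19.6% of all genes. The smallest adjusted p was 0.140 for Uck2, with an interval of -0.66 to -0.12 at 2 SE. In old mice the values were 0.10 ± 0.44, 0.12 ± 0.22, -0.20 ± 0.14 and -0.29 ± 0.11 for Inka1, Lrrc75a, Uck2 and Swap70, again with 0 of 4 called by either tool and 1, Swap70, at an unadjusted p under 0.05, as were 8.55% of all genes. Over all genes 1.9% were called in young and 0.78% in old mice, and 5.06 and 4.12% with 22 libraries, with 0 of 4 called in either. These contrasts and those of the sorts use libraries that also enter the age differences, and the values are not independent of them.

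**Figure D2:**
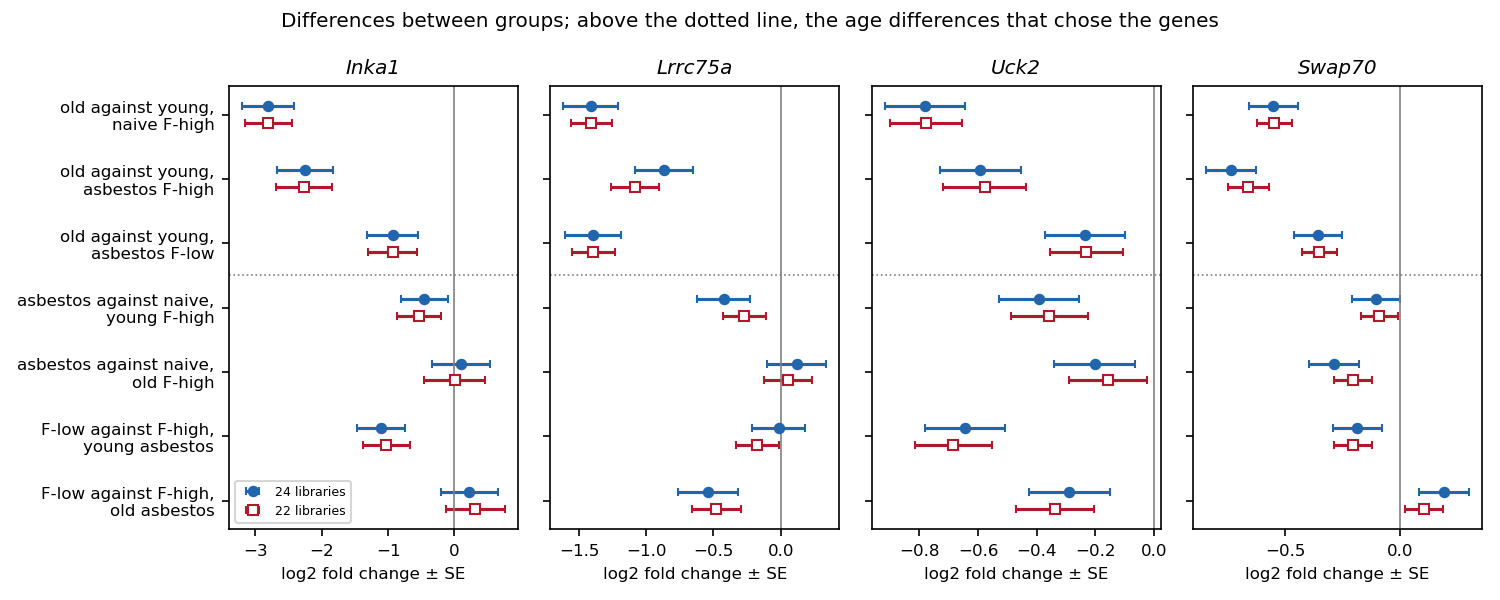
Log2 fold change ± SE (x axes) of the 4 genes for each comparison of 2 groups (y axis), with 24 libraries (filled circles) and 22 (open squares). Below the dotted line, Uck2 between the young asbestos sorts was called, at -0.64 ± 0.14.

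In the other tested contrasts of the sorts the genes were not called. Lrrc75a differed by -0.02 ± 0.20 in young mice (interval -0.41 to 0.38 at 2 SE) and by -0.54 ± 0.22 in old mice (adjusted p 0.213 with 24 and 0.0960 with 22 libraries). Swap70 differed by 0.19 ± 0.11 in old mice (adjusted p 0.434). In old mice edgeR and DESeq2 called 0 of 4, and 2 of 4 (Lrrc75a and Uck2) had an unadjusted edgeR p under 0.05, as did 15.4% of all genes.

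Of the nearest relatives, the 3 that could be tested were not called between the ages, with 24 or 22 libraries. Per kilobase of exon, Inka1 had a mean of 7.39 CPM in young naive cells against 0.41 CPM for Inka2, and 1.04 against 0.55 CPM in old naive cells, so the levels of the pair lay closer together in old cells. Inka2, a second INKA protein, differed with age by 0.42 ± 0.52, 0.61 ± 0.53 and 0.15 ± 0.49 on the log2 scale in naive, asbestos Siglec F-high and Siglec F-low cells (adjusted p 1.0, 0.477 and 1.0). With 22 libraries these were 0.41 ± 0.30, 0.27 ± 0.33 and 0.16 ± 0.27, and young asbestos Siglec F-high replicate 3, left out there, held 0 counts of Inka2. Uck1 was at 7.65 CPM per kilobase in young and 7.88 in old naive cells, where Uck2 was at 21.7 and 12.6. Its age differences of 0.04 ± 0.15, 0.06 ± 0.15 and -0.04 ± 0.15 were not called (adjusted p 1.0, 0.832 and 1.0). Def6 was far above Swap70 per kilobase, at 43.6 against 6.92 CPM in young naive cells, and differed with age by -0.04 ± 0.10, -0.22 ± 0.10 and -0.20 ± 0.10 (adjusted p 1.0, 0.168 and 0.614). Def6 was lower in Siglec F-low than in Siglec F-high cells with 22 libraries, by -0.25 ± 0.08 in young and -0.31 ± 0.08 in old mice (adjusted p 0.0475 and 0.0125), and not called with 24 (adjusted p 0.137 and 0.214). Lrrc75b was too low to test: its highest value was 3.19 CPM in the young library that stood apart and at most 0.33 CPM in the others.

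**Figure D3:**
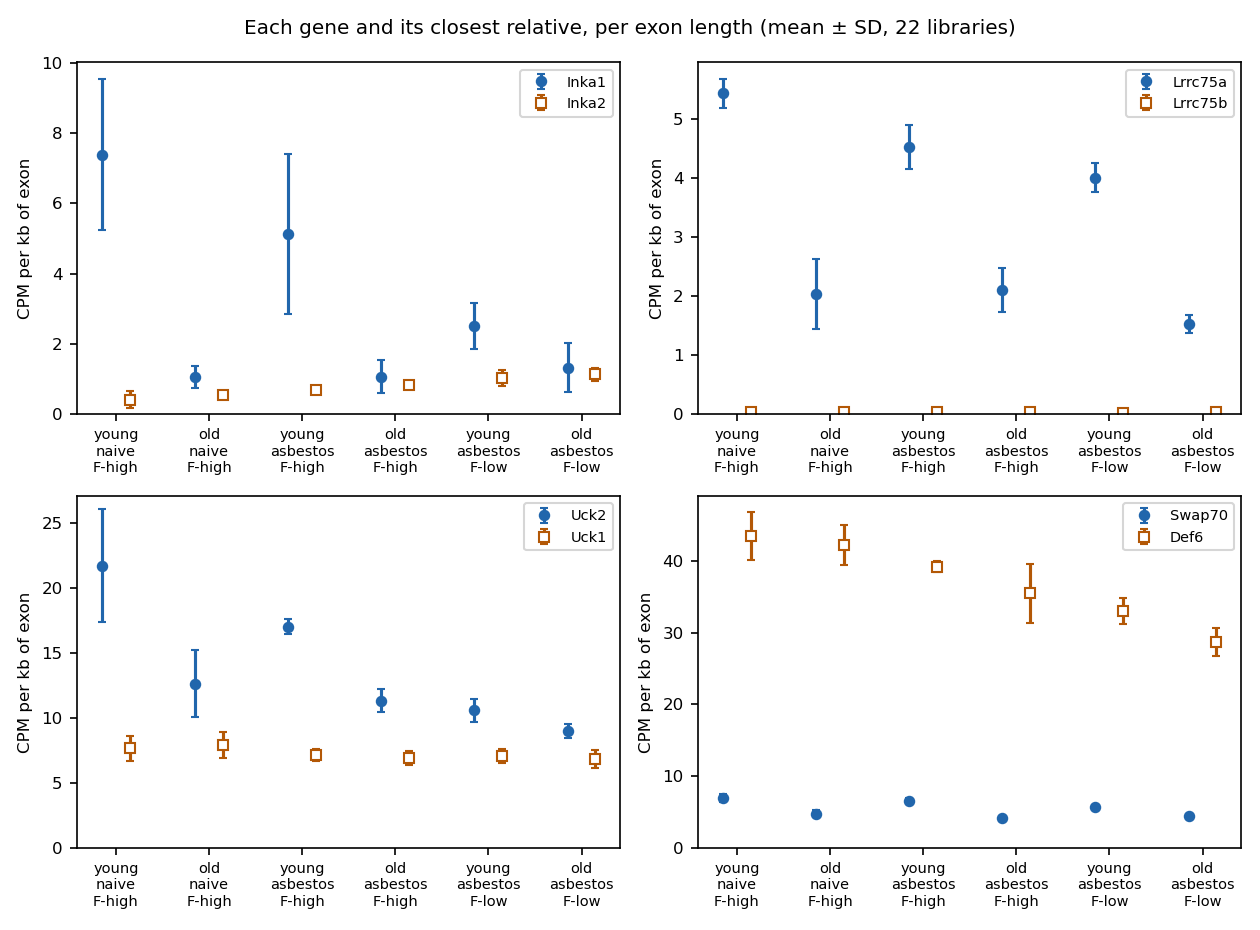
Mean ± SD over 22 libraries of each gene (filled circles) and its closest relative (open squares), in CPM per kilobase of merged exon (y axes), by group (x axes). Uck2 is at 21.7 in young and 12.6 in old naive cells, and Uck1 at 7.65 and 7.88.

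The genes beside them on the chromosome were examined because reads of neighbours could be counted together. The library kit does not mark strand and how the counting treated strand is not given in the sources used here, so reads of genes that overlap on opposite strands cannot be told apart. Few reads were assigned to the overlapping genes: over all 24 libraries they held 11 counts (Gm20661 at Inka1), 4 and 27 counts (Lrrc75aos1 and Lrrc75aos2 at Lrrc75a) and 26 and 54 counts (Gm2453 and Gm37982 at Uck2). These counts do not measure reads that fell on exons of both genes. Lrrc75aos2 shares 86 exonic bases with Lrrc75a and Gm2453 shares 150 with Uck2, and none overlaps Swap70. Uba7, the enzyme that starts conjugation of ISG15, ends 163 bases from Inka1 and differed with age in naive cells by -0.15 ± 0.15 (adjusted p 1.0). 4921523L03Rik, 5805 bases from Inka1, held 4 counts in all.

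Lrrc75a lies between 2 transcribed genes at short range. Mmgt2, which encodes a membrane magnesium transporter, begins 141 bases from the start of Lrrc75a on the opposite strand, and 2410006H16Rik, a processed transcript, ends 77 bases from its 3′ end. Mmgt2 was also lower in old cells. In young naive cells it was at 10.1, 10.5, 9.28 and 10.1 CPM and in old naive cells at 5.60, 6.17, 6.30 and 5.15 CPM, and in Siglec F-low cells at 8.77, 11.9, 10.4 and 11.7 CPM against 6.26, 3.85, 6.89 and 5.65 CPM. Neither pair of groups overlapped. The log2 fold changes were -0.78 ± 0.30 and -0.91 ± 0.30 with adjusted p of 0.323 and 0.216 by edgeR with 24 libraries, and -0.78 ± 0.19 and -0.91 ± 0.19 with adjusted p of 0.00930 and 0.00354 with 22, so that the call rests on leaving out the libraries that stood apart, neither of which is in these groups. In asbestos Siglec F-high cells Mmgt2 differed by -0.27 ± 0.32 with 24 libraries (adjusted p 0.605). The value with 22 libraries was -0.53 ± 0.21 (adjusted p 0.151). There the ages overlapped with 22 libraries too, as old replicate 1 held 9.88 CPM and young replicate 1 held 8.41 CPM. 2410006H16Rik differed by -0.30 ± 0.39, -1.10 ± 0.40 and -0.13 ± 0.39 with 24 libraries, and the middle value was 0.04 ± 0.18 with 22, since the young library that stood apart held 112 CPM and the other 3 young ones 18.0 to 23.7 CPM. None of these was called.

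**Figure D4:**
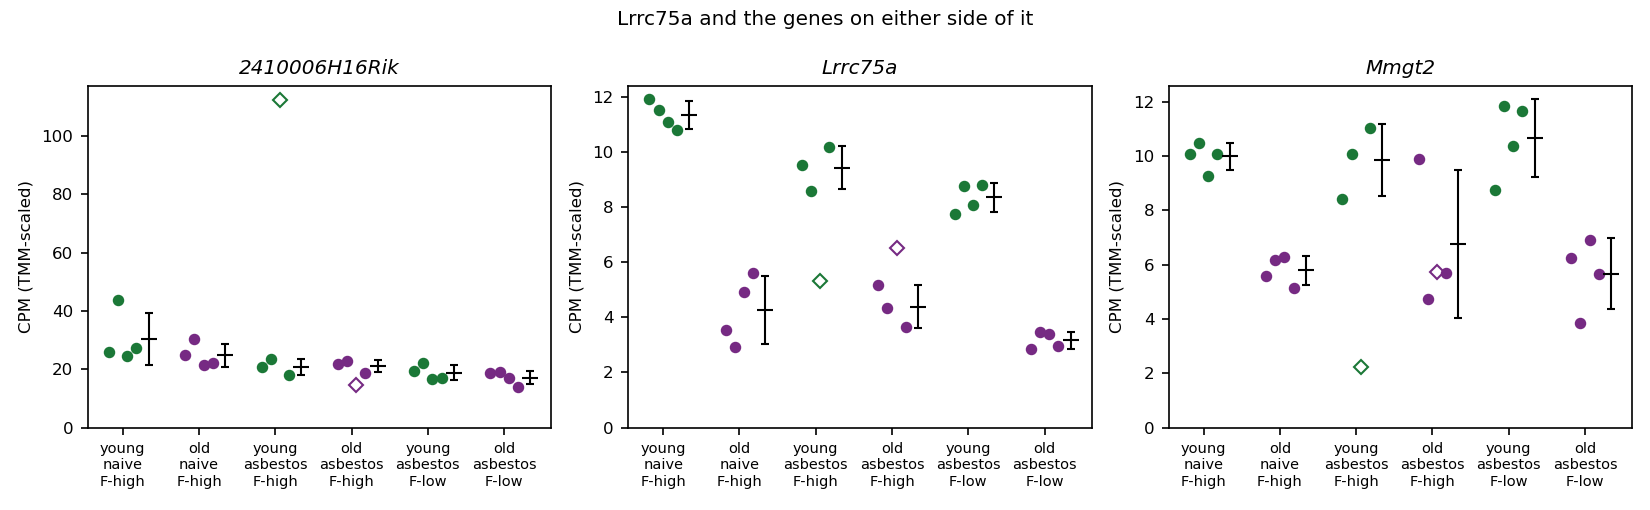
TMM-scaled CPM (y axes) of 2410006H16Rik, Lrrc75a and Mmgt2 in each library by group (x axes), with the 2 libraries that stood apart as open diamonds and the mean ± SD without them. Lrrc75a and Mmgt2 are lower in old naive and old Siglec F-low cells, with no overlap, while the ages overlap for 2410006H16Rik.

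Around Uck2 and Swap70 the neighbours are farther away. Fam78b, 131581 bases from Uck2, fell with age in naive cells from 26.8 ± 4.18 to 13.6 ± 2.05 CPM (n = 4 each), by -0.98 ± 0.19 (adjusted p 0.00469, edgeR), and in asbestos Siglec F-high cells by -0.70 ± 0.20 with 22 libraries (adjusted p 0.0377, and 0.0699 with 24). In Siglec F-low cells it differed by 0.16 ± 0.19 (adjusted p 1.0). Tmco1, a calcium channel of the endoplasmic reticulum 23058 bases on the other side, differed by 0.01 ± 0.21, -0.53 ± 0.22 and -0.12 ± 0.21 and was not called. With 22 libraries its value in asbestos Siglec F-high cells was 0.00, since the libraries that stood apart held 154 CPM (young) and 37.6 CPM (old) and the other 6 held 64.8 to 74.1 CPM. Beside Swap70, Sbf2 at 24507 bases and 1600010M07Rik at 70509 bases were not called between the ages in any population.

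The pathways around the genes were read from lists of their known members. Of the PAK and cofilin genes, 17 of 21 were tested and edgeR called 0 between the ages in each population with 24 libraries, as did DESeq2, with 1, 4 and 0 at an unadjusted p under 0.05. Over all genes 8.64, 26.3 and 8.15% had such a p. The median log2 fold change of the list was 0.049, 0.177 and 0.046, against -0.005, 0.036 and -0.008 over all genes. With 22 libraries the list's medians were 0.052, 0.035 and 0.051, against -0.001, 0.007 and -0.002. With 22 libraries Ssh2, a phosphatase that reactivates cofilin, fell with age in naive cells from 257 ± 59.7 to 171 ± 10.8 CPM (n = 4 each), by -0.58 ± 0.17 (adjusted p 0.0346). Between the sorts in old mice Ssh2 was also lower in Siglec F-low cells, by -1.01 ± 0.27 (adjusted p 0.0312) with 24 and by -0.57 ± 0.18 (adjusted p 0.0480) with 22 libraries. Limk1, a kinase that inactivates cofilin, was higher there with 22 libraries, by 0.92 ± 0.14 (adjusted p 9.15e-05). Its relative Limk2 went the other way there, by -0.35 ± 0.10 (adjusted p 0.0249). Between the young sorts with 22 libraries Limk1 was higher by 0.47 ± 0.14 (adjusted p 0.0224) and Limk2 lower by -0.46 ± 0.10 (adjusted p 0.00371).

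Among 29 tested genes of pyrimidine synthesis and salvage, 1 fell with age in every population. Rrm2, the small subunit of ribonucleotide reductase, which makes precursors of DNA, fell from 35.3 ± 1.88 to 20.6 ± 2.26 CPM in naive cells (-0.78 ± 0.18, adjusted p 0.0163), by -0.64 ± 0.18 in asbestos Siglec F-high (adjusted p 0.0423) and by -0.87 ± 0.18 in Siglec F-low cells (adjusted p 0.0107). In naive and Siglec F-low cells it was the only gene of the list that edgeR called with 24 libraries, while DESeq2 called 1 gene of the list as lower in naive, 6 in asbestos Siglec F-high and 4 in Siglec F-low cells. In asbestos Siglec F-high cells 3 fell and 1 rose, among them Dck, deoxycytidine kinase, at -0.62 ± 0.15 (adjusted p 0.0165), and Ctps2, a CTP synthase, which rose by 0.47 ± 0.13 (adjusted p 0.0354). For Dck the young mean was 65.2 ± 18.9 CPM (n = 4) with 24 libraries and 55.9 ± 4.53 CPM (n = 3) with 22. Its old mean was 41.9 ± 3.14 CPM (n = 4). Rrm2 and Ctps2 differed there by -0.77 ± 0.13 and 0.40 ± 0.10 with 22 libraries (adjusted p 0.000515 and 0.0140). With 22 libraries 1, 5 and 8 genes fell and 0, 1 and 0 rose in naive, asbestos Siglec F-high and Siglec F-low cells, including Cad, which carries the opening steps of new pyrimidine synthesis (-0.41 ± 0.10 in asbestos Siglec F-high), and Tk1 and Rrm1 (-0.56 ± 0.10 and -0.55 ± 0.11 in Siglec F-low). Over all genes edgeR called 2.91, 2.47 and 3.41% as lower with 22 libraries and 0.349, 1.87 and 0.423% with 24, and DESeq2 0.639, 4.33 and 0.77%. The list's median was -0.051, -0.204 and -0.103 with 24 and -0.045, -0.132 and -0.096 with 22 libraries. Between the young asbestos sorts, where Uck2 fell, edgeR called 0 of 29 with 24 and with 22 libraries and DESeq2 0, with 5 at an unadjusted p under 0.05, which 20.7% of all genes had.

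Cell cycle genes moved with age beside Uck2 and Rrm2. The sum of 10 cell cycle markers, of which Rrm2 is also in the pyrimidine list, was 473.5 to 555.0 CPM in young and 359.6 to 379.0 CPM in old naive cells, 528.8 to 701.0 against 433.0 to 480.2 CPM in asbestos Siglec F-high and 594.9 to 737.7 against 358.0 to 459.9 CPM in Siglec F-low cells, with no overlap. Of the 10 markers, 3, 4 and 4 fell with age with 24 libraries and 8, 7 and 10 with 22, and none rose, beside the shares of all genes called as lower given above. Their part in the lower level of Uck2, Lrrc75a, Inka1 and Swap70 in old cells was not tested. After asbestos, 4 of 10 markers rose in young and 3 in old Siglec F-high cells with 22 libraries, and 0 fell. With 24 libraries 2 and 0 rose. Over all genes 3.48 and 3.16% were called as higher there with 22 libraries, and 1.43 and 0.713% with 24. With 22 libraries Rrm2 rose by 0.58 ± 0.12 at each age (edgeR adjusted p 0.00478 and 0.00795). Uck2 differed by -0.36 ± 0.13 and -0.16 ± 0.13 and was not called. Between the young asbestos sorts, where Uck2 fell, 0 of 10 markers were called by edgeR with 24 or 22 libraries, and their sum was 528.8 to 701.0 CPM in Siglec F-high and 594.9 to 737.7 CPM in Siglec F-low cells.

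**Figure D5:**
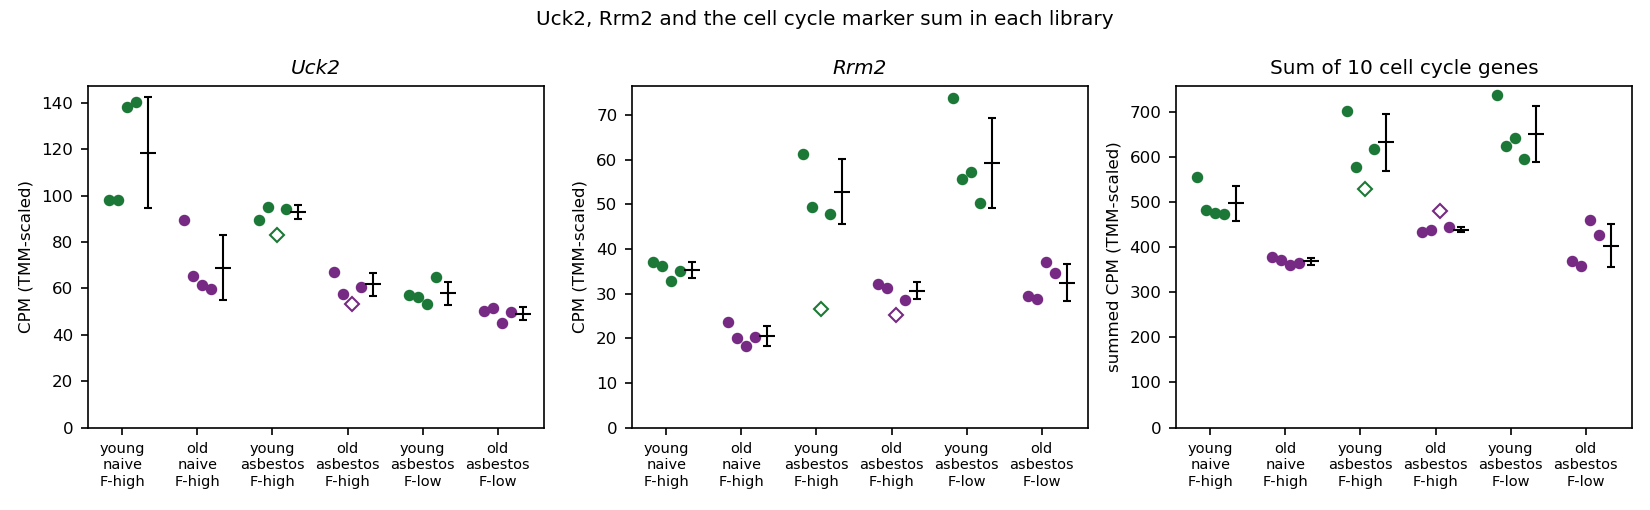
TMM-scaled CPM (y axes) of Uck2, of Rrm2 and of the sum of 10 cell cycle markers in each library by group (x axes), with the 2 libraries that stood apart as open diamonds and the mean ± SD without them. Uck2 is lower in young Siglec F-low than in young asbestos Siglec F-high cells, while the cell cycle sums of these groups overlap.

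For Swap70 the list held 26 genes of small GTPase and phosphoinositide signalling, all tested. edgeR called 0 in naive cells between the ages with 24 libraries, DESeq2 0, and 0 had an unadjusted p under 0.05, against 8.64% of all genes. With 22 libraries edgeR called Rac2, a small GTPase of blood cells, as higher in old naive cells, at 203 ± 7.50 against 168 ± 22.3 CPM (n = 4 each, 0.28 ± 0.09, adjusted p 0.0477), and Inpp5d, a phosphoinositide phosphatase, as lower in old asbestos Siglec F-high cells (-0.27 ± 0.08, adjusted p 0.0473). In each asbestos population 1 gene was called with 24 libraries, Irf4, the transcription factor that DEF6 binds. It rose from 7.02 ± 2.30 to 16.8 ± 3.52 CPM in Siglec F-high cells (1.29 ± 0.24, adjusted p 0.00301) and from 11.6 ± 2.85 to 37.6 ± 5.54 CPM in Siglec F-low cells (1.69 ± 0.23, adjusted p 0.000276, n = 4 each). The list's median was -0.001, 0.134 and -0.054 over the 3 populations with 24 and 0.002, -0.06 and -0.048 with 22 libraries, beside the same medians over all genes as above. Between the sorts, Vav3, an exchange factor for small GTPases, was higher in young Siglec F-low cells by 0.93 ± 0.25 (adjusted p 0.0276), and Irf4 in old ones by 1.12 ± 0.24 (adjusted p 0.00677). With 22 libraries 5 genes of the list were lower and 2 higher in Siglec F-low cells at each age, among the lower ones Dock8 (-0.50 ± 0.08 in young and -0.42 ± 0.08 in old mice), a Rac and Cdc42 exchange factor. Over all genes 4.6% were called as lower and 7.42% as higher there in young mice, and 5.28 and 6.3% in old mice.

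B cell markers were looked at beside Swap70, which B cells hold in abundance. The sum of 10 B and plasma cell markers was 45.3 to 80.5 CPM in young and 47.2 to 69.7 CPM in old naive cells, 21.8 to 41.7 against 21.3 to 58.4 CPM in asbestos Siglec F-high and 22.6 to 26.5 against 25.4 to 46.2 CPM in Siglec F-low cells. Of the 10, 0 fell with age by edgeR in any population with 24 or 22 libraries. With 22 libraries 2 of 10 rose in each asbestos population, and 0 in naive cells, where edgeR called 4.84 and 3.8% of all genes as higher in asbestos Siglec F-high and Siglec F-low and 5.11% in naive cells. Ms4a1, a defining marker, was at 4.62 to 6.34 CPM in young and 4.26 to 8.25 CPM in old naive cells.

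Markers of monocytes and recruited macrophages moved with age as well. Their sum over 10 genes was 608.6 to 720.5 CPM in young and 525.8 to 804.4 CPM in old naive cells, and with 22 libraries 592.8 to 829.0 against 754.6 to 931.5 CPM in asbestos Siglec F-high cells. With 24 libraries the sums in asbestos Siglec F-high cells were 535.4 to 829.0 CPM in young and 521.9 to 931.5 CPM in old mice. In Siglec F-low cells it was 1051 to 1214 against 1176 to 1398 CPM. With 22 libraries 1, 3 and 7 of the 10 rose with age in the 3 populations and 0, 1 and 0 fell, at medians of 0.183, 0.396 and 0.626, and with 24 libraries 1, 2 and 1 rose and 0, 1 and 0 fell, when edgeR called 1.68, 2.89 and 0.869% of all genes as higher. None of the 10 was at 0 in a whole group. Their part in the lower level of the 4 genes in old cells was not tested. The same markers rose in Siglec F-low against Siglec F-high cells, 5 of 10 in young and 6 of 10 in old mice with 24 libraries, at a median log2 fold change of 1.703 and 1.503, beside the fall of Uck2 in young cells. Over all genes 3.41% in young and 2.64% in old mice were called as higher there. The markers' part in that fall was not tested.

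Correlations of the 4 genes across libraries are a description with no p. All 4 were chosen as lower in old cells, which by itself sets them to follow each other over libraries of both ages. Over 22 libraries the Spearman correlation of log2 CPM was highest for Inka1 and Swap70 (0.86) and Inka1 and Lrrc75a (0.83), and lowest for Inka1 and Uck2 (0.62). Within the 11 young libraries the 6 pairs were at 0.70 to 0.91, and within the 11 old ones at -0.48 to 0.44, with Inka1 and Swap70 at 0.79 and 0.18. Libraries of 1 age still share the naive, asbestos and sort groups. Likeness to a gene chosen by age, over libraries of both ages, also favours genes that are lower in old cells. Age differences of the genes most alike are therefore no separate result. Among all named genes tested, those most like Inka1 were Dhx40 (0.87), a putative RNA helicase, Swap70 (0.86) and Elovl6 (0.85), a fatty acid elongase. Elovl6 was at 19.4 ± 6.41 CPM in young and 6.12 ± 0.46 CPM in old naive cells. Among those most like Lrrc75a were Cdt1 (0.90), which licenses DNA replication, and Adora3 (0.89), an adenosine receptor. Most like Uck2 were Pygl (0.94), a glycogen phosphorylase, Rassf5 (0.94), a Ras effector, and Ankrd44 (0.94), an ankyrin-repeat protein. Pygl was at 547 ± 32.7 CPM in young asbestos Siglec F-high (n = 3) and 435 ± 5.11 CPM in young Siglec F-low cells (n = 4). Most like Swap70 were Smchd1 (0.90), a chromatin protein, Xpo1 (0.89), the main nuclear export receptor, and Ddx3y (0.89), an RNA helicase of the Y chromosome. With all 24 libraries 6 of the 11 genes named here ranked lower in likeness by 30 places or more: Smchd1 (0.57), Xpo1 (0.65) and Ddx3y (0.77) for Swap70, Dhx40 (0.67) for Inka1, Ankrd44 (0.77) for Uck2 and Adora3 (0.77) for Lrrc75a. Swap70 for Inka1 (0.82), Elovl6 (0.81), Cdt1 (0.87), Pygl (0.92) and Rassf5 (0.93) moved by less.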

How the data were processed

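RNA of sorted macrophages was poly(A)-selected and made into libraries from 30 ng with a NEBNext Ultra kit, per the labels' protocols. The deposited values are counts per Ensembl gene, whole numbers with no scaling by the authors; per the submitters' processing notes bcl2fastq 2.19.1, FastQC, Trimmomatic 0.36, STAR 2.6.0, HTSeq 0.11.2 and mm10 were used. Which annotation and strand setting the counting used is not given in the sources used here. Counts were filtered with filterByExpr by group, scaled with TMM factors and fitted in edgeR 4.0.16 (R 4.3.3), 1 term per group over 24 libraries, by the quasi-likelihood test with Benjamini-Hochberg adjustment over 13467 genes, or 13629 with 22 libraries. DESeq2 1.42.0 was an alternative. Scripts were tested on simulated data. SE is the absolute log2 fold change over the square root of F, and log2 CPM used a prior count of 2. Positions and exon lengths came from GENCODE M21, and symbols from a list of gene names by Ensembl ID. Of the 43430 counted IDs, 42546 were matched.

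The members and lists were chosen with earlier results of these data known, as was the set of 22 libraries. Named were the 4 genes, their relatives, neighbours, the 3 genes of highest Spearman correlation, and called list genes of smallest p (at most 3 per list and comparison); 1 gene that this rule names is not reported here. The 6 groups came from the sample labels, and replicate numbers from the titles. Totals of 13423080 to 18124526 counts, and 11889517 and 3894699 in 2 libraries, set the precision.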

Additional observations from a re-analysis of the deposited data

How the results depend on the processing

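Each value of the 4 genes was recomputed with 22 libraries, DESeq2 size factors, DESeq2's Wald test, no filter, a replicate block, only the 2 groups compared and each library left out. Age differences kept their sign in all 392 alternatives. Of 480 alternatives for tested values, 468 kept direction and call, and 10 of the others changed the sign of a value that was not called. Leaving out 1 library gave ranges of -0.056 to 0.43 (Inka1) and -0.024 to 0.28 (Lrrc75a) for asbestos in old mice, of -0.17 to 0.092 for Lrrc75a between the young sorts, and of -0.18 to 0.46 for Inka1 between the old sorts. Inka1 between the young sorts ran from -1.33 to -0.94 and passed with young asbestos Siglec F-high replicate 1 left out (adjusted p 0.0255) and at -1.13 with DESeq2 (adjusted p 0.0442); the cause was not tested. Same-number correlations of the asbestos sorts were -0.18 to 0.245 in young and 0.0733 to 0.186 in old mice. They were not set against correlations of different numbers, so they cannot show whether sorts of the same number came from the same mice. The numbers were not taken as pairs. With the replicate block Uck2 between the young sorts was -0.65 (adjusted p 0.00798), and no call of the 4 genes changed.

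Counts of called genes moved more. Age called 273 genes in naive cells (179 to 1094 over the alternatives), 641 in asbestos Siglec F-high (17 to 1592) and 174 in Siglec F-low cells (77 to 983). Asbestos called 256 in young (10 to 690) and 105 in old mice (39 to 562), and the sorts differed at 672 in young (181 to 1638) and 579 in old mice (269 to 1578). The highest count came with 22 libraries in each but age in asbestos Siglec F-high, where it came without young replicate 4. Depth limits Inka1, with 3 counts in the shallow library.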

Other observations

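Ddx3y was among the genes most like Swap70, and after its values were seen the other broadly expressed Y-linked genes were read beside their X-linked copies. With 22 libraries all 12 age differences of Ddx3y, Eif2s3y, Kdm5d and Uty were below 0, from -0.68 to -0.10 on the log2 scale, and edgeR called 6 of them. Ddx3y, which prompted the look, gave 3 of the 12 values and 2 of the 6 calls, and without it 4 of 9 were called. The likeness of Ddx3y to Swap70, a gene chosen by age, was taken over libraries of both ages. That favours a lower level of Ddx3y in old cells, so its values are a description and its calls no support. Over all genes 2.91, 2.47 and 3.41% were called as lower with 22 libraries in naive, asbestos Siglec F-high and Siglec F-low cells. Kdm5d, a histone demethylase, fell in naive cells from 32.2 ± 2.37 to 20.1 ± 1.86 CPM (n = 4 each, -0.68 ± 0.10, adjusted p 0.000133) and in Siglec F-low cells by -0.42 ± 0.11 (adjusted p 0.0169). Ddx3y was at 95.6 ± 4.996 CPM in young and 70.8 ± 9.20 CPM in old naive cells (-0.43 ± 0.11). In Siglec F-low cells it differed by -0.35 ± 0.11. The X-linked copies Ddx3x, Eif2s3x, Kdm5c and Kdm6a gave values of -0.22 to 0.33, with 0 of 12 called by edgeR. With 24 libraries 1 of the 12 Y-linked values was called, Kdm5d in naive cells (adjusted p 0.00264). How reads shared between the copies were counted is not known, and whether the Y-linked and X-linked copies differed in their change was not tested.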
